A study of Mus musculus with 454 samples.

Results

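The 6 genes described here encode subunits of the NMDA receptor, a glutamate-gated cation channel of excitatory synapses. They are Grin1, Grin2a, Grin2b, Grin2c, Grin2d and Grin3a, taken by symbol from the Ensembl identifiers of a table of 43346 mouse genes. All 6 were found, and all 6 passed the filter on low counts in every fit. The series measured polyadenylated RNA in libraries of mouse brain, 115 labelled AMY, 112 Nac, 112 PFC and 115 VTA, under a title that names adolescent social isolation, the medial amygdala and sex differences in reward. Within a region, females and males, group-housed (G) or socially isolated (SI), received cocaine at 0 or 7.5 mg/kg on an acute (A) or chronic (CHR) schedule, which makes 16 groups of 5 to 8 libraries. A cocaine dose of 0 is called saline here, since the study's design text names saline. The labels give no strain, genotype, age, number of injections or time after the last injection, and whether each library is a different animal is not stated. The p-values therefore measure only the spread from library to library, part of which may be technical.

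An NMDA receptor is built around GluN1, the product of Grin1, which binds glycine or D-serine, together with GluN2 or GluN3 subunits. The GluN2 subunits (Grin2a to Grin2d) bind glutamate and set how long the channel stays open and how strongly magnesium blocks it. GluN2B (Grin2b) prevails early in life and is later joined by GluN2A (Grin2a) in forebrain, GluN2C (Grin2c) is known from cerebellar granule cells and astrocytes, and GluN2D (Grin2d) from midbrain, diencephalon and interneurons. GluN3A (Grin3a) binds glycine, passes little calcium and is most abundant during postnatal development. In the reward circuit, changes in these subunits after cocaine have been studied mostly in the nucleus accumbens and the ventral tegmental area.

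Gene models are those of the GENCODE M21 annotation of GRCm38, and all 6 lie on the minus strand. Grin1 is at chr2:25291181-25319187, Grin2a at chr16:9567898-9995560, Grin2b at chr6:135713233-136173511, Grin2c at chr11:115249169-115267243, Grin2d at chr7:45831883-45878378 and Grin3a at chr4:49661611-49845744. The exons of 1 gene, merged over its transcripts, cover 9.7 kb for Grin1, 17.9 kb for Grin2a, 24.8 kb for Grin2b, 5.04 kb for Grin2c, 6.66 kb for Grin2d and 12.3 kb for Grin3a. Exons of Grin1, Grin2b, Grin2c and Grin2d overlap annotated genes of the opposite strand, among them Grin1os. The libraries were stranded, but the strand setting of the counting is not given in the sources used here, so reads of these antisense genes cannot be told apart from those of the subunits.

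The 250 bases before the annotated starts of Grin1 and Grin2c are shown because these genes both passed the test between schedules in Nac, reported further on. They were read 5′ to 3′ on the minus strand from the RefSeq GRCm38.p6 promoter table, which held 3 of the 6 members; the other one, Grin2d, has its window inside an annotated exon. Capitals mark the E box CACGTG in Grin1, at chr2:25319188-25319437, and the GC box GGGCGG in Grin2c, at chr11:115267244-115267493.
Grin1: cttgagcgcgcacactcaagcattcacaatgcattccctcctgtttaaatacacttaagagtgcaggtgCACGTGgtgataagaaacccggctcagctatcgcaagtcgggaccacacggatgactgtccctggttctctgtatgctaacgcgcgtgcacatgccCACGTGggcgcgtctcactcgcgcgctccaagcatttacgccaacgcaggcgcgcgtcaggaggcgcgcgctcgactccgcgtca
Grin2c: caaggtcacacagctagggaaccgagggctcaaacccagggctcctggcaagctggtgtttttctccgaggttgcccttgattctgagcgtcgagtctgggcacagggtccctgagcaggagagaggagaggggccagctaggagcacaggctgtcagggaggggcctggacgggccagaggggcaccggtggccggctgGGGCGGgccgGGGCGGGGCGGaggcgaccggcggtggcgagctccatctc
The Grin1 window held 2 E boxes, which begin 181 and 85 bases before the start, and no GC box. Grin2c held 3 GC boxes, which begin 50, 40 and 35 bases before the start, the last 2 of which share a base, and no E box. The motifs were picked after the sequences were seen, and both strands were searched. Among 32851 windows of the same length, 32.7% held a GC box and 6.02% an E box. The share of G and C was 58.8% in Grin1 and 68.8% in Grin2c, with a median of 52.4% over all windows. Several annotated Grin1 transcripts begin further downstream, and a match is a description of letters only.

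Total counts ranged from 11.21 M to 52.34 M per library with a median of 21.72 M. The levels below are CPM, counts relative to the total of their library, with edgeR's TMM factors computed over the libraries of all regions. VTA, Nac and PFC carried their own markers, with the 8-gene dopamine neuron list at a mean log2(CPM + 1) of 7.58 in VTA against 1.45 to 2.02 elsewhere and the 9-gene striatal list at 8.75 in Nac against 4.11 to 5.20. At 6.49, PFC had the highest level of the 9-gene list for cortical glutamatergic neurons, while the 9-gene medial amygdala and hypothalamic list gave no single order: its mean log2(CPM + 1) was highest in AMY at 4.32, but its median summed level was higher in VTA (622 CPM in acute and 776 CPM in chronic libraries) than in AMY (343 and 310 CPM). By a rule on principal components and marker lists, 6 AMY, 10 Nac, 8 PFC and 8 VTA libraries stood apart from their region, and 3 libraries labelled female, 1 AMY and 2 Nac, held Y-linked transcripts at 5% or more of the male median. The titles carry numbers in series that do not run evenly over the groups. Acute libraries of both doses came from series 1000 and 1100, chronic saline from 500 and 1200 and chronic cocaine from 1000 and 1200. What the series stand for is not given in the sources used here.

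The subunits differed most between regions. Grin1 and Grin2b were the most abundant subunits in AMY, Nac and PFC, while VTA held 3.43- to 4.97-fold less Grin2b than the other regions and the most Grin2d. Grin3a was highest in AMY, Grin2a in PFC and Grin2c in Nac. These are bulk tissue libraries, in which fewer cells of a type and less RNA per cell cannot be told apart.

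Grin1, whose product is part of every NMDA receptor, had its lowest, median and highest library at 207, 283 and 352 CPM in AMY, 123, 282 and 416 CPM in Nac, 231, 314 and 411 CPM in PFC and 137, 188 and 240 CPM in VTA. The libraries of VTA overlapped those of the other regions only in the low range of the latter. On the mean ± SD, Grin1 was at 313 ± 33.6 CPM in PFC (n = 112) and 190 ± 20.8 CPM in VTA (n = 115). Grin1 was 1.67-fold lower in VTA than in PFC, a log2 difference of -0.74 ± 0.02 (SE; edgeR's quasi-likelihood test, Benjamini-Hochberg adjusted over 16854 genes, as in all comparisons of regions below). VTA was also lower than AMY (-0.61) and Nac (-0.60), and PFC was higher than AMY and Nac (0.14 each). AMY and Nac did not differ beyond their spread, at 283 ± 30.3 and 286 ± 45.2 CPM, with a log2 difference of -0.01, a 95% interval of -0.05 to 0.04 and an adjusted p of 0.79.

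Grin2b, the GluN2 subunit with the long intracellular tail that binds CaMKII, showed the greatest regional difference of the 6. Its lowest, median and highest libraries were at 45.2, 127 and 221 CPM in VTA, 196, 416 and 871 CPM in AMY, 105, 489 and 1820 CPM in Nac and 277, 634 and 841 CPM in PFC. No VTA library reached the lowest PFC library. Grin2b was 4.97-fold lower in VTA than in PFC (log2 difference -2.31 ± 0.05 SE, adjusted p = 1.96e-174), 4.02-fold lower than in Nac and 3.43-fold lower than in AMY. Among the other 3 regions the order was PFC, Nac, AMY, and each step passed the test, with log2 differences of 0.31 for PFC over Nac, 0.23 for Nac over AMY and 0.53 for PFC over AMY.

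Grin2d, whose channels close most slowly of the GluN2 types, ran the other way. It stood at 39.2, 56.5 and 73.6 CPM (lowest, median, highest) in VTA, 22.7, 37.5 and 53.9 CPM in AMY, 5.96, 16.5 and 41.3 CPM in Nac and 11.7, 19.3 and 25.4 CPM in PFC. All VTA libraries were above all PFC libraries. It was 3.07-fold higher in VTA than in Nac (log2 difference 1.62, adjusted p = 1.11e-154) and 2.90-fold higher than in PFC, and exceeded AMY by 0.54. Nac and PFC were below AMY, with log2 differences of -1.08 and -1.0. PFC and Nac were closest, with a log2 difference of 0.09 and an adjusted p of 0.0353.

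Grin3a was at 104, 147 and 224 CPM in AMY, 39.1, 80.5 and 120 CPM in VTA, 42.1, 72.6 and 91.2 CPM in PFC and 23.8, 47.5 and 96.7 CPM in Nac. All AMY libraries were above all PFC and Nac libraries. It was 3.16-fold lower in Nac than in AMY (log2 difference -1.66, adjusted p = 6.23e-146), and the order AMY, VTA, PFC, Nac passed at each step, with a log2 difference of 0.19 between VTA and PFC. The remaining differences were -0.88 for VTA and -1.07 for PFC against AMY, and 0.78 for VTA and 0.59 for PFC against Nac.

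Grin2a, which accompanies mature synapses, was at 5.04, 49.0 and 78.3 CPM in PFC, 1.41, 29.3 and 64.2 CPM in Nac, 3.33, 21.1 and 56.7 CPM in AMY and 1.36, 21.1 and 33.8 CPM in VTA. The regions overlapped and each held a few libraries far below the rest. Grin2a was 2.14-fold higher in PFC than in AMY (log2 difference 1.10) and 2.32-fold higher than in VTA. PFC exceeded Nac by 0.76, Nac exceeded AMY by 0.34, and VTA against Nac was at -0.46. AMY and VTA did not pass, with a log2 difference of -0.12 and an adjusted p of 0.101.

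Grin2c varied least between regions. Its medians were 46.4 CPM in Nac (27.3 to 89.7), 41.4 CPM in PFC (29.4 to 59.3), 36.5 CPM in VTA (25.0 to 68.4) and 36.1 CPM in AMY (23.9 to 59.0), with wide overlap. Nac exceeded AMY by 0.34 and VTA was below Nac by a log2 difference of -0.38. PFC against AMY was at 0.18, PFC against Nac at -0.16 and VTA against PFC at -0.22. VTA and AMY did not pass, at a log2 difference of -0.04 and an adjusted p of 0.229.

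Counted over the 6 pairs of regions, 5 members passed for Nac against AMY, beside 85.3% of all genes tested. For PFC against AMY 6 passed beside 82.5%, for PFC against Nac 6 beside 87.2%, for VTA against AMY 4 beside 88.5%, for VTA against Nac 6 beside 91.2% and for VTA against PFC 6 beside 90.5%. With that many libraries most genes differ between regions, so passing is near the background and the sizes carry the description.

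**Figure D1:**
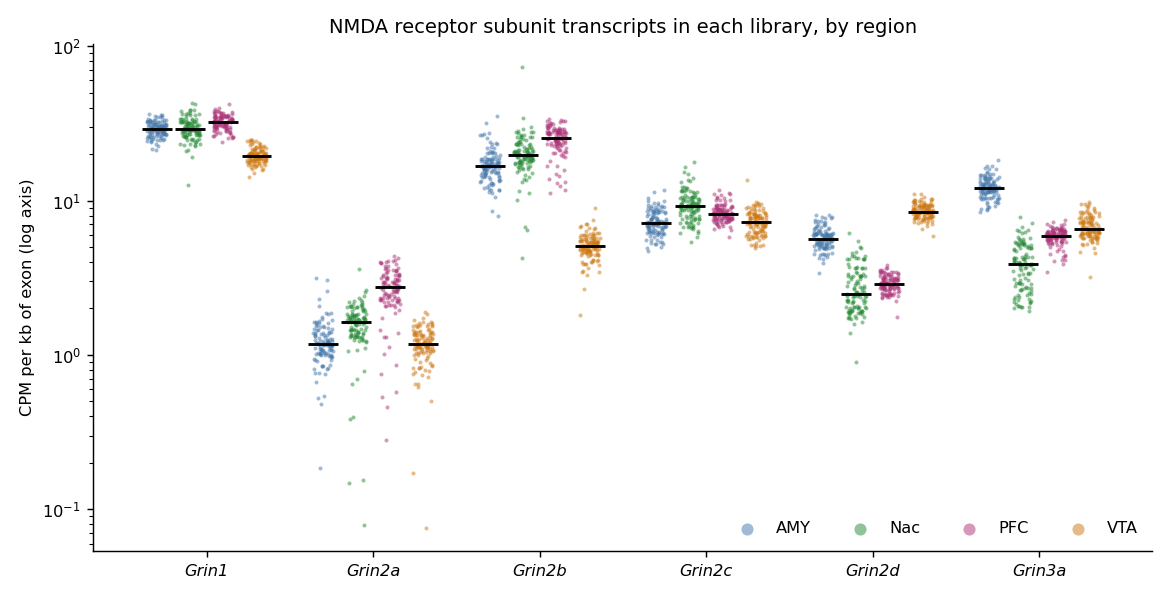
Each point is 1 library, with CPM per kb of exon on a log axis for the 6 subunits, coloured by region. Grin2b lies lowest in VTA, with a mean of 5.12 against 17.2 to 25.0 in the other regions, and Grin2d lies highest there, at 8.59.

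Levels of different genes can be compared only per length of transcript. As mean CPM per kb of exon, Grin1 led in every region, from 19.6 in VTA to 32.2 in PFC. In Nac and PFC the order was Grin1, Grin2b, Grin2c, Grin3a, Grin2d and Grin2a. In AMY Grin3a, at 12.2, came next after Grin2b at 17.2, and Grin2d at 5.78 stood above Grin2a at 1.25. In VTA the order was Grin1, Grin2d at 8.59, Grin2c at 7.29, Grin3a at 6.79, Grin2b at 5.12 and Grin2a at 1.18. Of the 4 GluN2 transcripts added up per length, Grin2b made a median share of 65.0% in PFC, 59.4% in Nac, 53.7% in AMY and 23.0% in VTA. The Grin2d share was 39.0% in VTA and 18.7% in AMY, against 7.28% in Nac and 7.32% in PFC. Grin2a made the smallest share in each region, from 3.87% to 6.85%. Exon length merged over all isoforms overstates the transcribed length of genes with many or long alternative ends, so these ranks depend on the annotation.

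The ratio of Grin2b to Grin2a, often used as a measure of synapse maturity, can be taken within a library without scaling. It is not free of the length trend of a library, described further on. In the 12 libraries of lowest trend, Grin2a lay at a median log2 of -2.55 from its region's median and Grin2b at -1.10. The median ratio was 19.5 (AMY), 17.5 (Nac), 13.3 (PFC) and 5.96 (VTA) as a ratio of counts. Its mean log2 was 4.29 ± 0.26 (AMY), 4.19 ± 0.41 (Nac), 3.77 ± 0.40 (PFC) and 2.64 ± 0.43 (VTA) (SD, n = 115, 112, 112 and 115). Over libraries sharing a title number, VTA was below PFC by a mean log2 of -1.12 (106 pairs), below Nac by -1.52 and below AMY by -1.66 (102 pairs each), and PFC was below AMY by -0.52 (102 pairs) and below Nac by -0.43 (99 pairs). Each of these had a p of 1e-05 in a two-sided permutation test with 100000 resamples, the smallest they can give, and an adjusted p of 3.6e-05 over the 18 tests of the ratio. Nac against AMY did not pass, at -0.11 (101 pairs, adjusted p = 0.0692). Whether a shared title number marks related libraries is not settled. Over all libraries without pairing the differences were -1.13 for VTA against PFC, -1.55 against Nac and -1.65 against AMY, -0.52 for PFC against AMY and -0.42 against Nac (permutation test, adjusted p = 3.6e-05 each), and -0.10 for Nac against AMY (adjusted p = 0.0747).

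The partners of the receptor were taken from a list of 53 genes, made of 15 scaffold, 19 signalling, 11 co-agonist supply and 7 transport genes and Grin3b. Of these, 14 were higher and 37 lower in VTA than in PFC, with a median log2 difference of -0.64 beside -0.02 over all genes. The test called 90.5% of all genes there, and from 82.5% to 91.2% over the pairs of regions. The numbers of partners called between regions are thus near the background. The scaffold genes gave 1 higher and 14 lower of 15, with a median of -1.51, whereas the co-agonist genes gave 6 higher and 4 lower of 11. Ptk2b, a calcium-dependent tyrosine kinase that acts through Src, differed by -5.57, the PSD-95 binding protein gene Dlgap1 by -2.43 and the SAP102 gene Dlg3 by -1.44. Against AMY, VTA had 16 higher and 35 lower, with Ptk2b at -4.65, the CaMKII alpha gene Camk2a at -3.73 and Dlg3 at -1.12. Dao, whose product degrades D-serine, had a median of 6.46 CPM in VTA (2.04 to 12.9) and of 0.0968 CPM in AMY (0.0 to 0.567), too near 0 there for a fold. Against Nac, VTA had 18 higher and 33 lower, with Ptk2b at -5.76, the auxiliary subunit gene Neto1 at -2.97, Kif17, a motor that carries GluN2B vesicles, at -2.38 and Camk2b at -1.69.

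Among AMY, Nac and PFC the median differences of the partners were smaller. PFC against AMY gave 38 higher and 13 lower with a median of 0.27, and 14 of the 15 scaffold genes were higher and none lower. Camk2d was at -1.51, Dlgap1 at 0.86 and Dlgap4 at 0.63. PFC against Nac gave 28 higher and 19 lower, among them Homer2 at 2.03, Dlgap1 at 1.83, Apba1 at 1.21 and the STEP phosphatase gene Ptpn5 at -1.57. Nac against AMY gave 29 higher and 21 lower, with Ptpn5 at 1.53, Kif17 at 1.34, Camk2g at -1.04 and Camk2d at -2.03. Grin3b, the other GluN3 gene and no member, was low, with a mean of 1.75 CPM in VTA and 0.584 CPM in Nac.

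No subunit passed the test for acute cocaine. The 24 log2 differences (6 genes in 4 regions) ran from -0.15 to 0.12, and none passed the test over all genes, which called 0.0647% of genes in PFC, 0.0467% in VTA and 0.0% in AMY and in Nac. At an unadjusted p under 0.05 the same test held 538 of 17391 genes in AMY and 894 of 17266 in Nac, where limma voom called 0 in both regions and DESeq2 0 in AMY and 2 in Nac. By chance alone a share of about 0.05 of the genes tested would fall there, here and in the tests below. The lowest p in VTA was that of Grin2c, whose lowest, median and highest libraries were at 25.0, 30.1 and 38.8 CPM after saline (n = 28) and 25.4, 33.8 and 42.0 CPM after cocaine (n = 29). The arms overlapped over nearly their whole range, with a log2 difference of 0.12 ± 0.05 (SE; edgeR, adjusted p = 0.555). In the other regions the lowest p belonged to Grin1 in AMY (-0.05, adjusted p = 1.0), Grin2a in Nac (-0.15, adjusted p = 0.996) and Grin2c in PFC (0.05, adjusted p = 0.718).

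No subunit passed for chronic cocaine either, with 24 log2 differences between -0.35 and 0.19. The test called 7.12% of all genes in PFC, 0.151% in Nac, 0.0817% in VTA and 0.0518% in AMY, and in PFC edgeR called 0 genes once the number series was a term of the model. In PFC, Grin1 had the lowest p, with 252, 318 and 411 CPM after chronic saline (n = 26) and 247, 291 and 363 CPM after chronic cocaine (n = 28), a log2 difference of -0.10 ± 0.04 (SE) and an adjusted p of 0.0951. Grin2a in PFC had the widest difference, with 5.04, 53.3 and 75.7 CPM after saline and 13.4, 41.8 and 63.5 CPM after cocaine. The lowest library was a saline one although the saline median was higher, and the log2 difference was -0.35 ± 0.15 (SE) with an adjusted p of 0.15. The 2 arms share only number series 1200, with 8 chronic cocaine and 16 chronic saline libraries in PFC. Its group of isolated females on cocaine holds a single library. Within that series the Grin2a difference in PFC was -0.12. Whether the series or the smaller number of libraries bears on this was not tested. With the length trend of a library as a term, explained further on, the Grin2a difference in PFC was -0.25 with an adjusted p of 0.0115.

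In the other regions the lowest p under chronic cocaine belonged to Grin2c in Nac (0.19, adjusted p = 0.178), Grin1 in AMY (-0.05, adjusted p = 0.933) and Grin2a in VTA (-0.12, adjusted p = 1.0). The 95% interval of Grin2b in Nac, GluN2B being much studied there after cocaine, reached from -0.08 to 0.37 on the log2 scale. Among the 53 partners none passed under acute cocaine, and under chronic cocaine 2 of the 50 tested in PFC fell, Camk2g by 0.24 on the log2 scale (adjusted p = 0.00188) and Dlgap1 by 0.13 (adjusted p = 0.0269), beside the 7.12% of all genes called there. Neither passed with the number series as a term (-0.05 and -0.04, adjusted p = 1.0 each), and among saline libraries Camk2g differed by -0.30 between series 1200 and 500 (adjusted p = 0.00197). Dlgap1 also did not pass without the libraries that stood apart (-0.11, adjusted p = 0.0505).

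**Figure D2:**
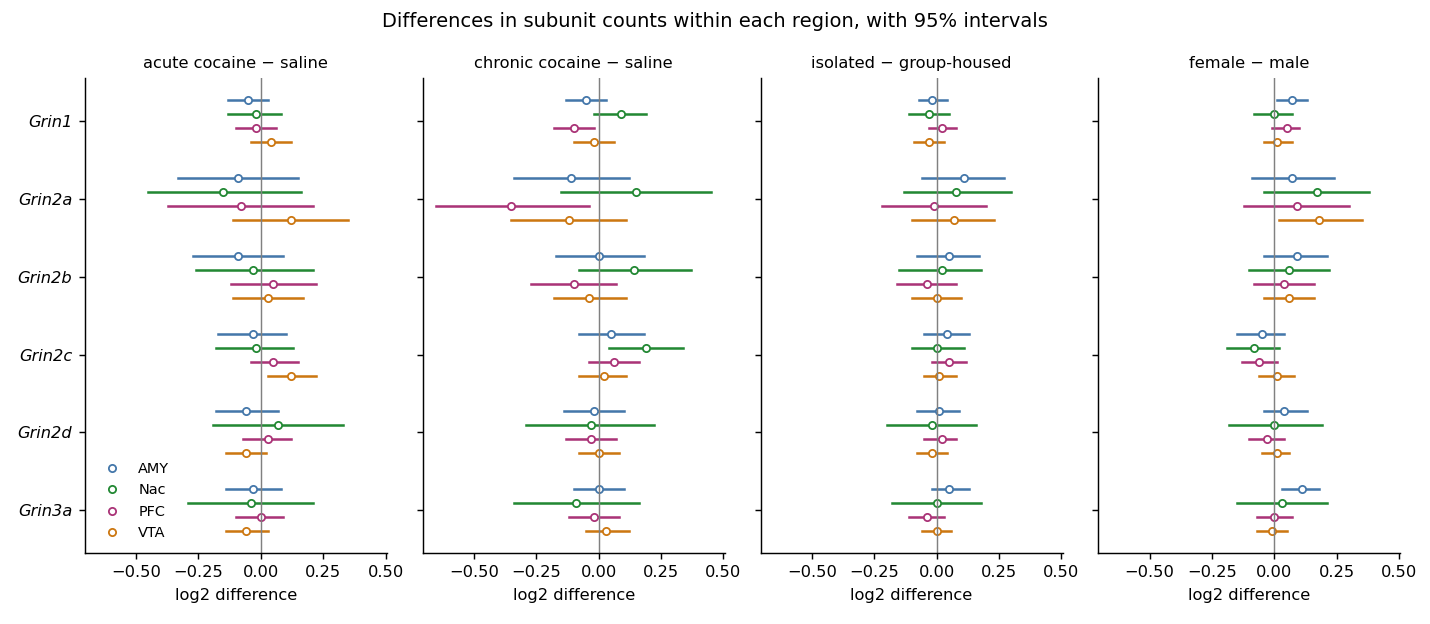
Log2 differences of the 6 subunits for acute cocaine, chronic cocaine, housing and sex, with 95% intervals, in each of the 4 regions. All points are open because none passed the adjusted threshold, and the widest intervals belong to Grin2a.

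A difference in the cocaine effect among females and males of either housing (4 combinations) was tested with 3 degrees of freedom. No subunit passed on either schedule. The acute test called 0.0% of genes in AMY, Nac and PFC and 0.362% in VTA, and the chronic test 0.145% in Nac and 0.0% in AMY, PFC and VTA. At an unadjusted p under 0.05 the acute test held 866 genes in AMY, 726 in Nac and 508 in PFC, and the chronic test 229 in AMY, 425 in PFC and 158 in VTA, and limma voom also called 0 genes in each of these 6 tests. On the acute schedule the lowest p belonged to Grin2b in VTA (adjusted p = 0.271), Grin2a in AMY (0.889), Grin2d in PFC (0.999) and Grin2c in Nac (1.0). On the chronic schedule it belonged to Grin1 in Nac (adjusted p = 0.514), and to Grin1 in PFC, Grin3a in AMY and Grin2d in VTA, each with an adjusted p of 1.0. Among the partners, Calm3 passed in VTA for the acute test (adjusted p = 0.0455), which gives no direction. Calm3 was not followed under the alternatives, under which the number of genes called by that test fell, as given at the end.

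Isolation, averaged over the 8 pairs of groups that differ only in housing, gave no call for a subunit or any other gene in any region. Its log2 differences ran from -0.04 to 0.11 for the 6 subunits, and the test called 0.0% of genes in AMY, Nac, PFC and VTA, in which 407 to 708 genes had an unadjusted p under 0.05, with 0 calls in each region by DESeq2 and by limma voom. Grin2b in PFC was at 277, 629 and 841 CPM in group-housed and 307, 655 and 818 CPM in isolated libraries (n = 56 each), which overlap almost wholly. The subunit of lowest p was Grin2c in PFC (0.05, adjusted p = 1.0), Grin3a in AMY (0.05, adjusted p = 0.995), Grin1 in Nac (-0.03, adjusted p = 1.0) and Grin1 in VTA (-0.03, adjusted p = 1.0). Among saline libraries alone the call was 0.0% in all 4 regions for females and 0.0% in all 4 for males. Unadjusted p-values under 0.05 numbered 2358 genes in Nac, 476 in VTA, 433 in AMY and 232 in PFC for saline females, and from 413 to 950 for saline males, and DESeq2 and limma voom called 0 genes in these 8 tests too. In saline females the subunit of lowest p was Grin1 in AMY (-0.10, adjusted p = 1.0) and Nac (-0.14, 0.438), Grin3a in PFC (-0.10, 1.0) and Grin2a in VTA (0.12, 1.0). In saline males it was Grin2c in PFC (0.14, adjusted p = 0.977), Grin2a in Nac (0.35, 0.991), Grin3a in AMY (0.13, 0.897) and Grin2d in VTA (-0.05, 1.0).

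No subunit passed for sex, with log2 differences of females over males from -0.08 to 0.18. The test called 2.19% of genes in AMY, 1.12% in PFC, 0.332% in VTA and 0.272% in Nac. Grin3a in AMY had the lowest p, with 107, 153 and 224 CPM in females (mean 156 ± 23.7 SD, n = 59) and 104, 143 and 199 CPM in males (144 ± 20.5 SD, n = 56). The sexes overlapped, at a log2 difference of 0.11 and an adjusted p of 0.106. The 3 libraries labelled female that held Y-linked transcripts were kept under their labels. Without them no subunit passed in AMY (Grin3a 0.10, adjusted p = 0.129) or Nac (Grin2a 0.18, adjusted p = 0.589). The lowest p elsewhere was that of Grin2a in VTA (0.18, adjusted p = 0.664), Grin2c in PFC (-0.06, adjusted p = 0.492) and Grin2c in Nac (-0.08, adjusted p = 0.687).

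Nor did an effect differ between the 4 regions for any subunit, by the test of the difference itself over 17766 genes. That test called 0.428% of genes for acute cocaine, 1.46% for chronic cocaine, 0.225% for housing and 0.371% for sex. The lowest p was that of Grin1 for chronic cocaine (adjusted p = 0.283). The ratio of Grin2b to Grin2a did not pass in any of its 12 comparisons within regions either. Its nearest was chronic cocaine in AMY, with a mean log2 of 4.36 ± 0.15 after cocaine and 4.24 ± 0.22 after saline (n = 30 each), a difference of 0.12 and a permutation p of 0.0197, adjusted to 0.059. It was -0.02 (adjusted p = 0.883) with the number series in the strata. Without the libraries that stood apart, the Grin2b to Grin2a ratio passed for chronic cocaine in AMY (0.12, adjusted p = 0.0371) and PFC (0.23, adjusted p = 0.00261; 0.14 with them) and for housing in Nac (-0.14, adjusted p = 0.0287; -0.05 with them). Without the libraries of a length slope under -0.2, described further on, those 3 passed as well. Neither setting that left out libraries held the number series in its strata. No chronic AMY library was under -0.2, so the AMY difference stayed the same and only the adjustment over the ratio tests changed. In PFC all libraries of low slope were also among those that stood apart.

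Several subunits passed between the chronic and the acute schedule. Grin3a in VTA was at 82.2, 95.3 and 117 CPM (lowest, median, highest) in acute saline libraries (n = 28), 78.3, 89.9 and 120 CPM in acute cocaine, 39.1, 73.6 and 82.7 CPM in chronic saline and 56.5, 73.1 and 84.9 CPM in chronic cocaine (n = 29 each). All 29 chronic saline and all 29 chronic cocaine libraries lay below the median of the acute libraries of their dose, though the ranges still touched. Grin3a fell by 0.44 on the log2 scale under saline (edgeR, adjusted p = 1.04e-14) and by 0.35 under cocaine (adjusted p = 1.39e-10). Beside these, the schedule test called 43.6% of all genes in VTA under saline and 38.2% under cocaine.

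Grin2c in VTA went up as Grin3a went down. It was at 25.0, 30.1 and 38.8 CPM in acute saline, 25.4, 33.8 and 42.0 CPM in acute cocaine, 31.4, 40.4 and 49.3 CPM in chronic saline and 31.7, 41.3 and 68.4 CPM in chronic cocaine libraries. Of the chronic libraries, 29 of 29 under saline and 27 of 29 under cocaine were above the acute median. The log2 differences were 0.40 (adjusted p = 5e-11) and 0.29 (adjusted p = 6.06e-07). The other 4 subunits did not pass in VTA in either arm.

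Acute and chronic saline libraries share no number series, so the schedule and the series cannot be told apart there. Under cocaine, series 1000 holds both schedules, and within it Grin3a in VTA differed by -0.30 (adjusted p = 4.31e-06) and Grin2c by 0.23 (adjusted p = 0.0024). In that series the acute cocaine libraries carry lower title numbers than the chronic ones, without overlap, in every region. The schedule and anything that goes with the title numbers cannot be told apart there either. Marker lists of VTA moved with the schedule. Of the 8 dopamine neuron genes, 7 were higher and 1 lower in chronic libraries, with a median of 0.74 under saline and 0.60 under cocaine and a summed level of 1320 to 7120 CPM in acute and 2300 to 8670 CPM in chronic libraries. All 8 microglia genes were higher (summed, 232 to 387 CPM in acute and at least 260 CPM in chronic libraries), as were 5 of 6 pan-neuronal genes (4540 to 6340 against 5410 to 6710 CPM), the sixth being lower under saline. Of the 13 choroid plexus genes, 12 were lower under cocaine and 4 under saline (summed, 388 to 17300 CPM in acute libraries, a range that holds that of the chronic ones). Other lists had lower medians of the summed level in chronic libraries, the thalamic list at 337 against 460 CPM, with ranges of 247 to 440 and 251 to 711 CPM, and the cerebellar list at 116 against 161 CPM (86.8 to 554 and 110 to 272 CPM). By gene, 2 of 6 thalamic genes were higher and 2 lower under saline and 2 higher and 3 lower under cocaine, and 4 of 11 cerebellar genes were higher and 3 lower under each dose. Grin3a in VTA correlated with the thalamic list at r = 0.34 (rho 0.30, permutation p = 0.00038, adjusted p = 0.00103), at 0.29 without the 2 farthest libraries and at -0.15 to 0.52 within series. No gene of these lists was at 0 in a region, and their part in the Grin3a and Grin2c differences was not tested.

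In Nac, 4 subunits passed under cocaine and 1 under saline, beside 24.3% and 20.9% of all genes. Grin1 was at 203, 270 and 327 CPM in acute saline (n = 27), 186, 267 and 345 CPM in acute cocaine (n = 28), 123, 297 and 408 CPM in chronic saline (n = 28) and 256, 314 and 416 CPM in chronic cocaine libraries (n = 29). Under cocaine, 27 of 29 chronic libraries were above the acute median, and Grin1 rose by 0.26 (adjusted p = 0.000228). Under saline it rose by 0.15 (adjusted p = 0.0396), a call that ended with limma voom (adjusted p = 0.0843) and without the filter on low counts (adjusted p = 0.0883).

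Grin2c in Nac was at 29.1, 44.6 and 66.2 CPM in acute cocaine and 33.6, 48.8 and 89.7 CPM in chronic cocaine libraries, a rise of 0.30 (adjusted p = 0.0028). Grin3a went from 27.7, 52.7 and 77.7 CPM to 25.2, 37.6 and 87.2 CPM, a fall of 0.37 (adjusted p = 0.024). Grin2b went from 167, 482 and 637 CPM to a lowest of 287 and a highest of 1820 CPM, a rise of 0.30 (adjusted p = 0.0447) in which 1 isolated male library held the 1820 CPM. All these arms overlapped. Within series 1000 Grin1 (0.24, adjusted p = 0.0356) and Grin2c (0.32, adjusted p = 0.0338) passed, and Grin3a (-0.37, adjusted p = 0.143) and Grin2b (0.23, adjusted p = 0.395) did not. Without the libraries that stood apart the Grin2b difference was 0.15 with an adjusted p of 0.191. Of the 9 striatal neuron genes 4 were higher in chronic libraries under each dose and none lower, with a summed level of 2380 to 6660 CPM in acute and 2830 to 8200 CPM in chronic libraries. The thalamic list had a median summed level of 117 CPM in acute (81.9 to 185) and 105 CPM in chronic libraries (80.3 to 182), with 1 of 6 genes lower under cocaine and none under saline. The cerebellar list was at 54.1 CPM (32.8 to 192) and 43.8 CPM (31.3 to 146), with 3 of 9 tested genes higher and 2 lower under cocaine and 3 higher under saline. The part of these lists was not tested.

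Fewer subunits passed in AMY and PFC. In AMY, Grin2c went from 23.9, 34.4 and 46.3 CPM in acute cocaine (n = 28) to 26.4, 38.4 and 56.9 CPM in chronic cocaine libraries (n = 30), a rise of 0.20 (adjusted p = 0.0219, beside 18.4% of all genes), and within series 1000 it was 0.35 (adjusted p = 0.00518). Under saline none passed in AMY, beside 20.4% of all genes, with Grin2b at the lowest p (-0.21, adjusted p = 0.088). In PFC none passed under saline (Grin3a 0.06, adjusted p = 0.469) or cocaine (Grin1 -0.08, adjusted p = 0.135), beside 23.3% and 18.5% of all genes. Whether the schedule difference of a subunit differs between regions or doses was not tested.

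**Figure D3:**
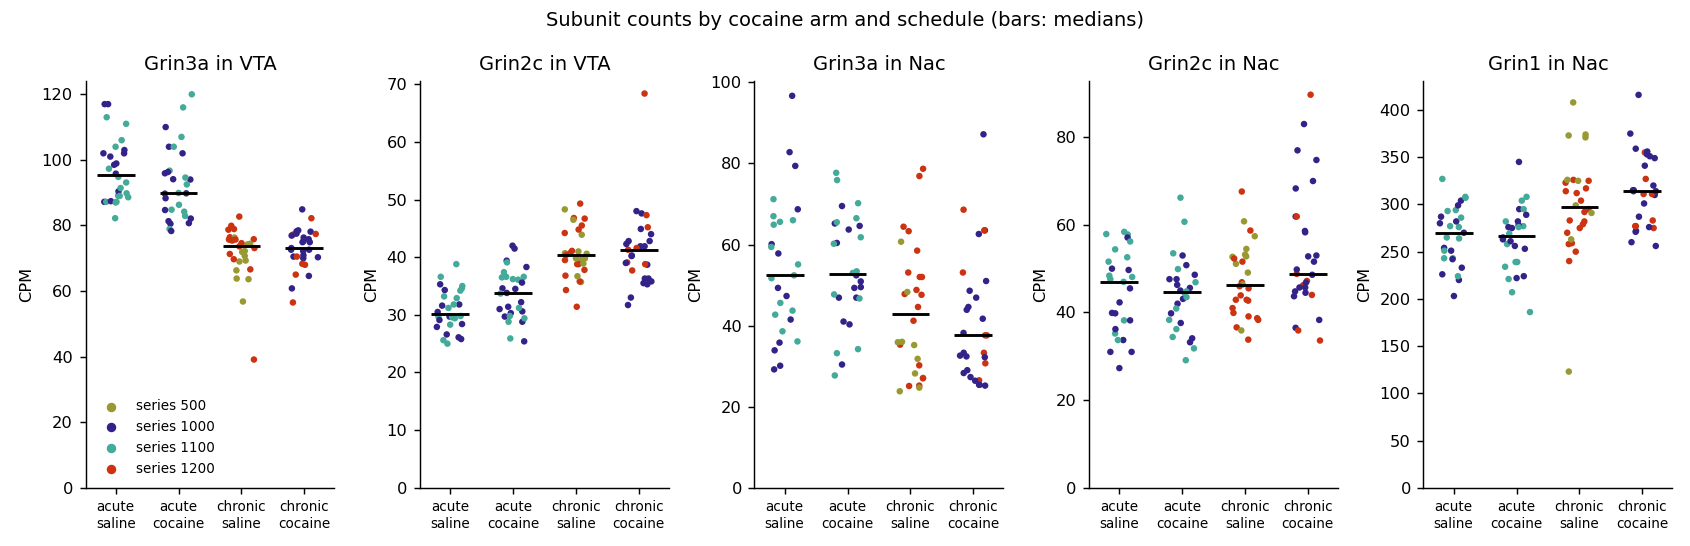
Points are libraries, in CPM from 0, for Grin3a and Grin2c in VTA and Grin3a, Grin2c and Grin1 in Nac, by dose and schedule, coloured by number series; bars are medians. In VTA all chronic libraries of Grin3a lie below the acute medians of 95.3 and 89.9, and in Nac the arms overlap throughout.

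The partners were called in numbers near the background in most of these tests. Among all genes, the share called was 43.6% in VTA, 20.9% in Nac, 23.3% in PFC and 20.4% in AMY under saline. Under cocaine it was 38.2%, 24.3%, 18.5% and 18.4% in the same order. In VTA, 12 of 53 were higher and 15 lower under saline and 8 higher and 16 lower under cocaine. The neuronal nitric oxide synthase gene Nos1, whose product is tied to the receptor through PSD-95, fell by 1.18 and 1.05 on the log2 scale, Dlg1 by 0.14 and 0.15, and the Ras exchange factor gene Rasgrf2 rose by 0.25 and 0.20. Neto1 fell by 0.50 under saline and Camk2a by 0.86 under cocaine. In Nac under cocaine 12 of 51 were higher and 3 lower, and 7 of the 15 scaffold genes were higher and none lower, among them Dlgap3 (0.31) and Shank3 (0.31), and Camk2b rose by 0.22. Under saline 3 of 51 were higher and 4 lower in Nac, with Lin7b at 0.33, Camk2b at 0.21, Lin7a at -0.21 and Homer2 at -0.58.

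In PFC the scaffold gene Homer1, whose short form is induced by activity, fell by 1.02 under saline (adjusted p = 2.98e-15) and by 0.95 under cocaine. None of the 50 partners tested there was higher and 8 were lower under saline, with Snx27 and Dlgap4 at -0.14 and Src at -0.10, and 1 was higher and 8 lower under cocaine, with Ephb2 at -0.20, Dlgap4 at -0.12 and Src at -0.11. Homer1 also fell in AMY, by 0.65 under saline and 0.39 under cocaine. AMY had 2 higher and 5 lower of 52 under saline, including Shank2 at -0.17, Ptpn5 at -0.12 and Camk2g at 0.12, and 4 higher and 3 lower under cocaine, including Ptpn5 at -0.16, Nos1ap at -0.15 and Calm3 at 0.12.

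Between number series within the same groups, 1 subunit passed. Grin2c in AMY was higher in series 1100 than in 1000 among acute libraries, by 0.21 (adjusted p = 0.0383, beside 0.926% of all genes), a call that ended without the libraries that stood apart (0.20, adjusted p = 0.119), with limma voom (adjusted p = 0.0515) and without the filter (adjusted p = 0.0631). None passed in Nac (1.11% of all genes; Grin2c 0.13, adjusted p = 0.371), PFC (3.04%; Grin3a -0.13, adjusted p = 0.0694) or VTA (0.0%, with 2493 genes at an unadjusted p under 0.05, 0 called by DESeq2 and 3 by limma voom; Grin2d -0.06, adjusted p = 0.486). Series 1200 against 500, among chronic saline libraries, gave none in AMY (7.83%; Grin1 -0.12, adjusted p = 0.172), Nac (0.0547%; Grin2d 0.70, adjusted p = 0.0933), PFC (13.2%; Grin1 -0.17, adjusted p = 0.0755) or VTA (0.037%; Grin2b 0.19, adjusted p = 0.818). Partners passed in PFC, with 1 higher and 5 lower for series 1100 against 1000 and 5 higher and 5 lower for 1200 against 500, and in AMY with 5 higher for 1200 against 500.

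Grin2a and Grin2b, the longest transcripts of the 6, varied together from library to library. Across the libraries of a region their Pearson r was 0.88 in AMY, Nac and PFC and 0.65 in VTA, with Spearman's rho of 0.86, 0.77, 0.82 and 0.36. The permutation p of each r was 1e-05, the smallest the resamples can give, with an adjusted p of 4.08e-05 over 396 relations. An adjusted p so near that floor means that many of the 396 relations reached it. Passing is therefore not particular to the relations named here. Without the 2 libraries farthest from the median of Grin2a, r was 0.87, 0.81, 0.87 and 0.43. Within the number series it lay between 0.76 and 0.98 in AMY, Nac and PFC and between 0.43 and 0.93 in VTA.

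Both followed a trend of counts with transcript length. For each library the log2 deviation from the region was regressed on log2 exon length over 11754 genes above 5 CPM, the members left out, and the slope per doubling of length ran from -0.64 to 0.50 with the middle 8 in 10 libraries between -0.054 and 0.048. Grin2a correlated with that slope at r = 0.80 (AMY), 0.85 (Nac), 0.91 (PFC) and 0.80 (VTA) (rho 0.69, 0.60, 0.75 and 0.42), and Grin2b at 0.70, 0.87, 0.86 and 0.84, each with a permutation p of 1e-05. Grin2c, the shortest, was at 0.01, 0.09, 0.01 and -0.36. Since the slope is fitted over genes by their length, long genes in general can follow it, and genes of like length were not compared. In the 12 libraries with a slope under -0.2 (1 AMY, 4 Nac, 5 PFC and 2 VTA), Grin2a was below its region's median in 12 of 12, by a median log2 of -2.55 (-3.96 to -1.84). Grin2b was below in 12 of 12, by -1.10 (-2.21 to -0.60), and Grin2c in 6 of 12, by -0.02. Grin1 and Grin3a were below in 10 of 12 each, by -0.25 and -0.42, and Grin2d in 7 of 12, by -0.05. What gave these libraries their slope was not tested, and the RNA integrity of a library is not given in the sources used here.

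**Figure D4:**
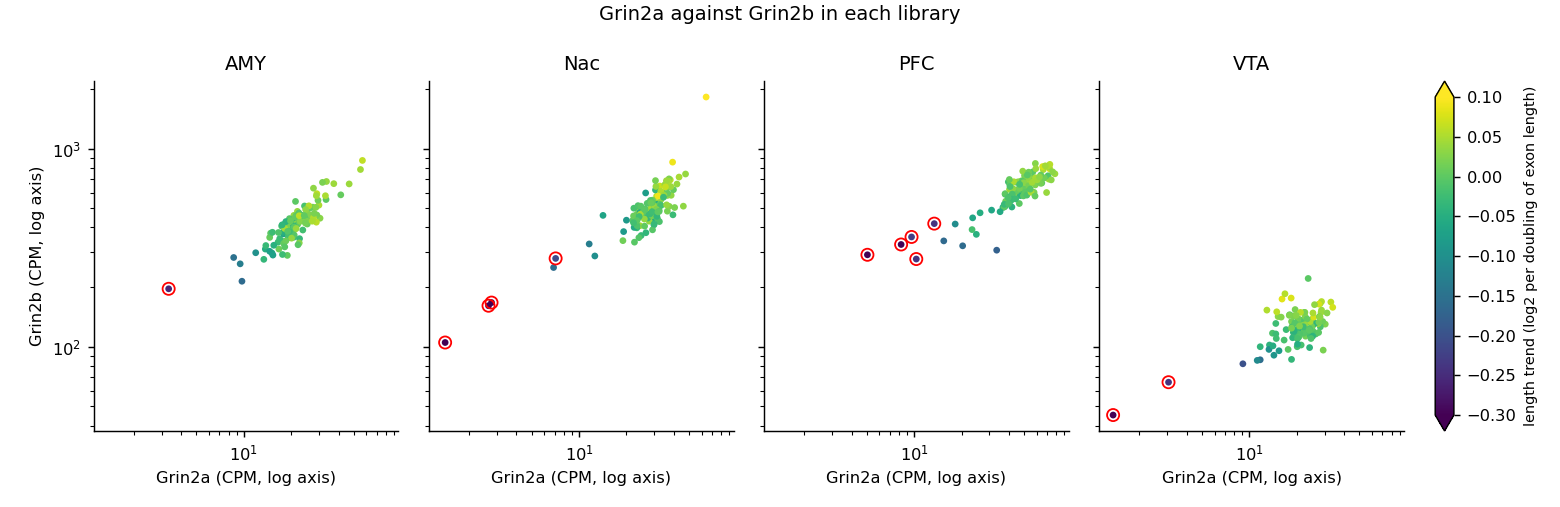
Each point is 1 library, with Grin2a and Grin2b in CPM on log axes, 1 panel per region, coloured by the length slope, with red circles around the 12 libraries under -0.2. The circled libraries hold the low end of both genes, and the correlation is 0.88 in 3 regions and 0.65 in VTA.

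In Nac, Grin3a and Grin2d varied with marker lists of striatum and thalamus. Grin2d and Grin3a correlated at r = 0.80 (rho 0.79, r = 0.80 without the 2 farthest libraries, 0.61 to 0.86 within series). Grin3a correlated at r = 0.88 (rho 0.89) with the 6-gene thalamic list and at -0.82 (rho -0.86) with the striatal list, and within series at 0.85 to 0.92 and -0.85 to -0.66. Grin2d stood at 0.82 and -0.73 with the same lists. Grin1 and Grin2c in Nac correlated at r = 0.50 (rho 0.56), 0.57 without the 2 farthest libraries, and within series at 0.09 to 0.68. In VTA, Grin2c and Grin3a correlated at -0.70 (rho -0.72, -0.67 without the 2 farthest), and within series at -0.43, -0.68, -0.14 and -0.53 for 500, 1000, 1100 and 1200. Grin3a in VTA stood at -0.72 with the pan-neuronal list, and within series at -0.79 to -0.26. Each of these r had a permutation p of 1e-05 and an adjusted p of 4.08e-05. The points share library scaling and depth, and groups of both schedules.

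**Figure D5:**
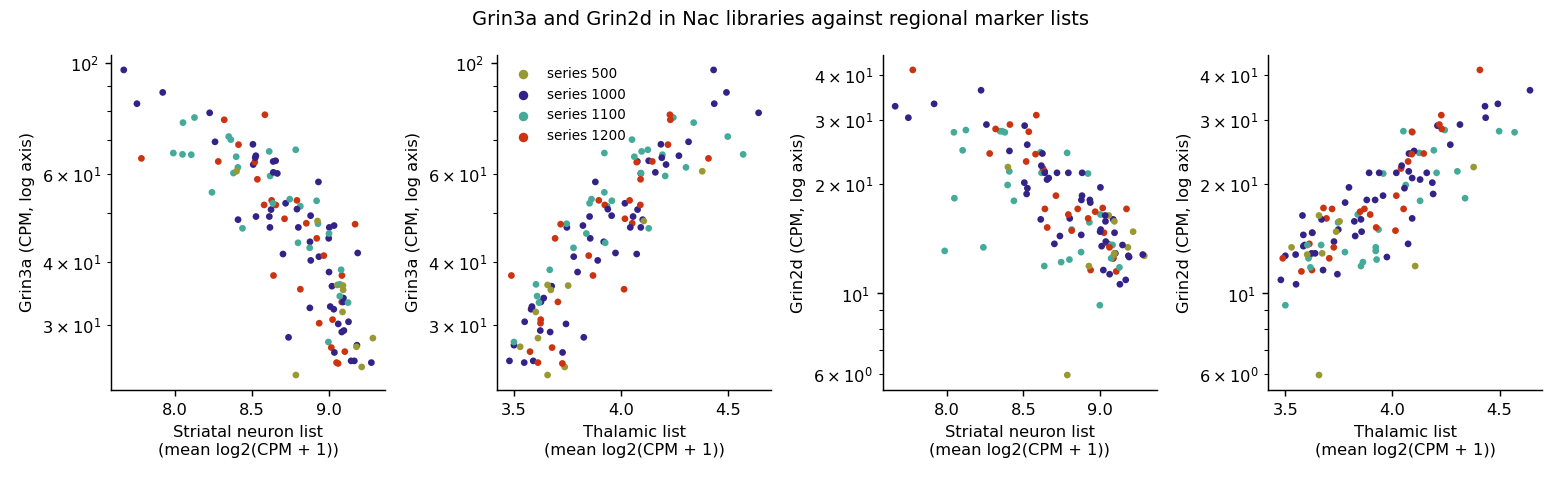
Nac libraries as points, with Grin3a (left pair) and Grin2d (right pair) in CPM on a log axis against the mean log2(CPM + 1) of the striatal and thalamic lists, coloured by number series. Grin3a falls with the striatal list (r = -0.82) and rises with the thalamic list (r = 0.88) in all 4 series.

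Which genes had the most similar pattern was measured over the 64 group means, which mostly reflect region, and over the deviations of all libraries from their group means, among 13523 genes. Over group means, Pearson r was among the 2 highest for Grin2b with Gas7 (0.993), Grin2d with Psd2 (0.988) and Atp1b2 (0.983), Grin3a with Astn2 (0.982) and Camk2d (0.973), Grin1 with Adgrb1 (0.977) and Lmtk3 (0.976), Grin2a with Kcnma1 (0.961) and Arhgap21 (0.958) and Grin2c with Irf8 (0.87) and Unc93b1 (0.857). Over deviations, Grin2a was most like Kcnma1 (0.957) and Fam135b (0.939), Grin2b like Lrrc7 and Nbea (0.899 each), Grin2d like Itga3 (0.802) and Caskin1 (0.80), Grin1 like Slc12a5 (0.788) and Tmem94 (0.78), Grin3a like Sez6l (0.774) and Disp2 (0.772) and Grin2c like Rasl10b (0.665) and Zfp523 (0.634).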

How the data were processed

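Total RNA was extracted with QIAzol and RNeasy columns, and 300 ng went into a stranded TruSeq mRNA kit after poly(A) selection and was sequenced (HiSeq2500, single reads of 50 bases), per the labels' protocols. The deposited table holds raw counts of reads per gene, whole numbers that the authors had not normalised. The submitters' processing notes name STAR, featureCounts, limma and the build GRCm38 (mm10), without versions or settings. Symbols were matched through a table of gene names for 42462 of 43346 Ensembl identifiers; the 884 others held 0.11% of the counts. Total counts of 11.21 M to 52.34 M per library set the counting precision.

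Counts were tested with edgeR 4.0.16 (R 4.3.3), with TMM factors, filterByExpr, robust quasi-likelihood fits and Benjamini-Hochberg adjustment over all genes at 0.05. The 16 groups of a region were fitted together, which tested 17391 (AMY), 17266 (Nac), 17003 (PFC) and 17144 genes (VTA), and regions were compared over all libraries. The ratio of Grin2b to Grin2a used counts plus 0.5 and permutation within strata of the other factors. Alternatives were other size factors, DESeq2 1.42.0, limma 3.58.1 with voom, no filter on low counts, number series as a term or fitted within, and leaving out libraries. Libraries that stood apart had a robust z over 8 on a marker list of another tissue, or over 5 on one of the first 4 principal components (3000 most variable genes). A length trend term, leaving out libraries of low length trend or with Y-linked transcripts under a female label, number series as a stratum of the ratio test and the ratio without pairing of regions were chosen after seeing the data. The steps were tested on simulated data for acute cocaine in PFC over 16899 genes, where 74% of 100 genes changed by 0.2 (log2) and 98% of 100 changed by 0.5 were recovered. The changed genes were drawn above a floor of level, and the simulated counts held no length trend or number series. So many changed genes also ease the adjusted threshold. These shares do not give the chance of finding a change in a subunit: the SE of Grin2a for acute cocaine was 0.15 in PFC and in Nac. No libraries were merged, since no pair of a group agreed within sampling noise (lowest chi-square per degree of freedom 2.81).

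The members, the gene lists and the tests were chosen with earlier results of these data known. The 6 members were tested in every comparison; those that passed are given with values, and where none passed in a region, the range of the differences or the member with the lowest p is given; of the partners, the 4 with the lowest p are named where any passed, and of like patterns the 2 highest Pearson r among genes of at least 1 CPM. Sequences are from RefSeq tables of GRCm38.p6. Some genes that this rule names are not reported here.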

Additional observations from a re-analysis of the deposited data

Results flagged for a closer look

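Within each of the 64 groups, the highest and the lowest library of a subunit was compared with the others by Dixon's ratio of its gap to the whole range. Chance alone flags about 1 in 20 groups. Of 384 combinations of subunit and group, 41 (10.7%) had such a library, 26 at the low and 15 at the high end, in 30 libraries. The subunits gave 17 for Grin2a, 8 for Grin3a, 6 for Grin2b, 4 each for Grin2c and Grin2d and 2 for Grin1. Each value below is the CPM of that library, followed by the median of the other libraries of its group.

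In Nac, Grin1 was low at 123 CPM in isolated females, chronic saline (median of the others 279). In AMY, Grin1 was high at 343 CPM in group-housed females, acute cocaine (median of the others 292).

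In AMY, Grin2a was low at 9.48 CPM in isolated females, chronic saline (median of the others 21) and 3.33 CPM in group-housed males, acute cocaine (median of the others 20.1). In Nac, Grin2a was low at 7.1 CPM in isolated females, acute cocaine (median of the others 28) and 1.41 CPM in isolated females, chronic saline (median of the others 33.2). Further low Grin2a libraries of Nac stood at 6.89 CPM in group-housed males, acute cocaine (median of the others 30.9) and 2.78 CPM in isolated males, acute cocaine (median of the others 29.2). In PFC, Grin2a was low at 18.2 CPM in group-housed females, chronic cocaine (median of the others 48) and 8.25 CPM in isolated females, acute cocaine (median of the others 56.7). A low Grin2a library of PFC also stood at 23.5 CPM in group-housed males, chronic cocaine (median of the others 41.9). In VTA, Grin2a was low at 9.08 CPM in isolated females, chronic cocaine (median of the others 24.5) and 3.06 CPM in group-housed males, acute cocaine (median of the others 19.9). Further low Grin2a libraries of VTA stood at 11.2 CPM in group-housed males, chronic cocaine (median of the others 22.5) and 1.36 CPM in isolated males, chronic saline (median of the others 25.9). In AMY, Grin2a was high at 30.0 CPM in isolated females, chronic cocaine (median of the others 18.4) and 55.1 CPM in group-housed males, acute saline (median of the others 22.4). In Nac, Grin2a was high at 41.9 CPM in group-housed males, chronic cocaine (median of the others 24.4) and 64.2 CPM in isolated males, chronic cocaine (median of the others 26.4).

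In AMY, Grin2b was low at 196 CPM in group-housed males, acute cocaine (median of the others 389). In Nac, Grin2b was low at 105 CPM in isolated females, chronic saline (median of the others 572). In PFC, Grin2b was low at 328 CPM in isolated females, acute cocaine (median of the others 689) and 418 CPM in isolated females, chronic cocaine (median of the others 679). In VTA, Grin2b was low at 82 CPM in isolated females, chronic cocaine (median of the others 134). In Nac, Grin2b was high at 1820 CPM in isolated males, chronic cocaine (median of the others 440).

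In PFC, Grin2c was low at 35.4 CPM in isolated males, acute saline (median of the others 43.4). In Nac, Grin2c was high at 61.9 CPM in isolated females, chronic cocaine (median of the others 45.7) and 67.6 CPM in isolated males, chronic saline (median of the others 46). In VTA, Grin2c was high at 68.4 CPM in group-housed females, chronic cocaine (median of the others 38.7). That library stood apart from its region on the cerebellar list, and the part of that list was not tested.

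In AMY, Grin2d was high at 53.9 CPM in isolated females, chronic saline (median of the others 35.4). In Nac, Grin2d was high at 33.3 CPM in group-housed females, chronic cocaine (median of the others 12.6) and 28.4 CPM in group-housed females, chronic saline (median of the others 14.9). A high Grin2d library of Nac also stood at 30.5 CPM in group-housed males, acute saline (median of the others 13.4).

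In PFC, Grin3a was low at 54.8 CPM in group-housed females, acute saline (median of the others 76.4) and 42.1 CPM in isolated females, acute cocaine (median of the others 72.4). Further low Grin3a libraries of PFC stood at 53.1 CPM in isolated females, chronic cocaine (median of the others 77) and 50.6 CPM in group-housed males, acute saline (median of the others 75.6). A low Grin3a library of PFC also stood at 53.3 CPM in isolated males, acute saline (median of the others 73.7). In VTA, Grin3a was low at 39.1 CPM in isolated males, chronic saline (median of the others 74.4). In AMY, Grin3a was high at 224 CPM in group-housed females, chronic cocaine (median of the others 156). In Nac, Grin3a was high at 87.2 CPM in group-housed females, chronic cocaine (median of the others 31.6).

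The same library was flagged for several subunits in some groups. The Nac library of isolated females on chronic saline was low for Grin1, Grin2a and Grin2b and had the lowest length slope of all, -0.64. The PFC library of isolated females on acute cocaine was low for Grin2a, Grin2b and Grin3a at a slope of -0.3. The Nac library of isolated males on chronic cocaine was high for Grin2a and Grin2b at the highest slope, 0.5. Another Nac library, of group-housed females on chronic cocaine, was high for Grin2d and Grin3a and stood apart on the dopamine neuron list. What gave these values was not tested.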

How the results depend on the processing

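The regional differences of the 6 subunits that passed kept their direction and their call under all 6 alternatives run for them, for example -2.36 to -2.29 for Grin2b in VTA against PFC. The schedule differences in VTA kept theirs too, at 0.37 to 0.41 for Grin2c and -0.44 to -0.37 for Grin3a under saline and 0.23 to 0.30 and -0.36 to -0.29 under cocaine, as did Grin1 (0.22 to 0.29) and Grin2c (0.27 to 0.32) in Nac and Grin2c (0.19 to 0.35) in AMY under cocaine. Grin2b in Nac under cocaine passed under 4 of 9 alternatives (0.12 to 0.33), Grin3a in Nac under 8 of 9 and Grin1 in Nac under saline under 6 of 8. Single values were followed for some subunits of each comparison, mainly those that passed or had the lowest p. Among these alternative values, 11 no longer passed, 10 newly passed, 1 reversed and the others kept direction and call. The counts of subunits given next cover all 6. Leaving out each replicate of the group of 5 (isolated males, acute cocaine, AMY) left the count of subunits at 0. Grin2a had the lowest single-library level, 1.36 CPM, and the other subunits did not fall under 5.96 CPM (Grin2d), so counting error bears most on the lowest Grin2a libraries. By the median, Grin2d was lower than Grin2a in Nac (16.5 against 29.3 CPM) and PFC (19.3 against 49.0 CPM).

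Counts of subunits that passed changed as follows, with the cause not tested. For chronic cocaine in PFC, 0 became 1 with the length trend as a term, 2 without the libraries of a length trend under -0.2 and 1 without the libraries that stood apart; the subunits were Grin2a (-0.25, -0.41 and -0.37; adjusted p = 0.0115, 0.0116 and 0.0344) and, in the second case, Grin1 (-0.12, adjusted p = 0.0449). With the number series as a term Grin2a was at -0.13 with an adjusted p of 1.0, and the 7.12% of genes called there became 0 genes, or 1 within series 1200, 2271 with the length trend, 639 with no filter and 507 without the libraries that stood apart. For series 1100 against 1000 in AMY, 1 became 0 with limma voom, no filter and without the libraries that stood apart. For series 1200 against 500, 0 became 1 in Nac with DESeq2 and with the length trend (Grin2d, 0.69 and 0.68), 2 in PFC with the length trend and 1 without either set of libraries (Grin1, -0.23 each), and 1 in VTA without the libraries of low length trend (Grin2b, 0.25). For the schedule in Nac, 4 became 2 within series 1000 under cocaine, and under saline 1 became 2 with the length trend and 0 with no filter. Grin2a for acute cocaine in Nac reversed to 0.02 within series 1000, where it was -0.15 over both series; neither value passed.

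The Grin2b to Grin2a ratio passed in 4 more comparisons when libraries were left out. The choice of libraries bears on the ratio itself, since those of low length trend had low Grin2a. In PFC these 5 libraries were all among those that stood apart, so the 2 settings overlap there. Both dropped chronic saline libraries with Grin2a at 5.04 and 9.61 CPM and a chronic cocaine one at 13.4 CPM. Without the libraries that stood apart, the ratio difference was 0.12 for chronic cocaine in AMY, -0.14 for housing in Nac, 0.23 for chronic cocaine in PFC and -0.14 for Nac against AMY. Without those of low length trend the values were 0.12, -0.13, 0.25 and -0.16. In AMY that setting left out no chronic library, so only the adjustment changed for chronic cocaine there. With the number series added to the strata, the ratio difference reversed to -0.02 for chronic cocaine in AMY, 0.04 for housing in Nac and -0.01 for chronic cocaine in VTA, none of which passed.

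Title numbers recur between regions, and a fit with the title number as a replicate block was made for the comparisons of regions. Same-numbered libraries deviated together only weakly from region to region, with a median correlation of 0.02 to 0.09, a lowest of -0.49 and 2 to 4 libraries per pair of regions that correlated best with their own number. Weak correlation between different regions cannot show whether same-numbered libraries are related. The edgeR tests of regions did not pair libraries by number. The ratio of Grin2b to Grin2a between regions was nonetheless computed over shared numbers, as planned, and without that replicate block, over all libraries, every direction and call stayed (-1.13 for VTA against PFC). With the block, Grin2b in VTA against PFC was -2.30 and Grin2d in PFC against Nac was 0.11 (0.09 without it), and no count of subunits changed. No groups compared within a region share title numbers.

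Counts over all genes moved by more than 1.5 times in other comparisons too, from the edgeR count to these. The schedule under cocaine went from 4190 to 735 genes in Nac, 6549 to 4200 in VTA, 3198 to 2019 in AMY and 3154 to 1938 in PFC within series 1000. Acute cocaine in VTA went from 8 to between 0 and 486 (within series 1000), in PFC from 11 to between 2 and 18 and in Nac from 0 to 2. Chronic cocaine went from 26 to between 0 and 98 in Nac, 14 to between 0 and 23 in VTA and 9 to between 1 and 19 in AMY. The test by sex and housing went from 62 to 2 in VTA (acute) and 25 to between 0 and 2 in Nac (chronic). Sex with the length trend went from 381 to 718 in AMY, 47 to 80 in Nac and 57 to 88 in VTA, and in PFC from 191 to between 74 and 508. Series 1100 against 1000 went from 157 to between 5 and 523 in AMY, 187 to between 2 and 368 in Nac, 502 to between 234 and 312 in PFC and 0 to at most 3 in VTA. Series 1200 against 500 went from 9 to between 171 and 441 in Nac, 6 to between 10 and 216 in VTA and 1288 to 748 in AMY. Between regions, limma voom without and with the replicate block called 1 and 1 genes for acute cocaine (76 by edgeR), 73 and 113 for chronic cocaine (260), 0 and 0 for housing (40) and 8 and 13 for sex (66).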
